A study of Mus musculus with 6 samples.

Results

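The 9 genes described here encode the signalling core of the pre-B cell receptor (pre-BCR): the chains Cd79a and Cd79b, the SRC-family kinases Blk, Lyn and Fyn, the kinases Syk and Btk, the adaptor Blnk and the phospholipase Plcg2. They were taken by gene symbol from tables of 54752 gene identifiers, and each symbol matched 1 identifier. All 9 passed the expression filter and stood among the 13539 genes tested. Messenger RNA was sequenced from pro-B cells sorted by flow cytometry from the bone marrow of adult C57BL/6 mice, 1 library per mouse. The 3 Skiv2l-deleted mice had the genotype Skiv2lfl/fl-Cd79a-Cre, and the 3 control mice had Skiv2lfl/fl, so that both groups carried the floxed alleles and Cre was named for the Skiv2l-deleted mice alone. The product of Skiv2l is the SKI complex helicase, which threads messenger RNA into the cytosolic exosome, and Cd79a-Cre is driven from the Cd79a gene and acts in B lineage cells. Cd79a is therefore both a member of this set and the source of the Cre driver. The sources used here do not say whether the driver replaces a Cd79a allele, how pro-B cells were gated or which sex the mice were, and an effect of the driver on Cd79a cannot be told apart from an effect of losing Skiv2l.

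The pre-BCR forms when a newly rearranged immunoglobulin mu heavy chain pairs with the surrogate light chain, and it tests that heavy chain before the light chain genes rearrange. It has no kinase activity of its own. The tails of CD79A and CD79B (Ig-alpha and Ig-beta) each carry an immunoreceptor tyrosine-based activation motif (ITAM), a pair of tyrosines that SRC-family kinases phosphorylate. SYK docks on the phosphorylated ITAM and phosphorylates the adaptor BLNK (SLP-65), which brings BTK to phospholipase C gamma 2 (PLCG2) and so opens the calcium and protein kinase C pathways.

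The ITAM coding stretches of both chains are shown because every kinase in this set acts on them or downstream of them. They were read from the GENCODE transcripts, with the codons of the tyrosines and of the leucine or isoleucine that follows each tyrosine in capitals.
Cd79a: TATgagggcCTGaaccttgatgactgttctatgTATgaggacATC
Cd79b: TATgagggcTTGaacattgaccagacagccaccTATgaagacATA
The Cd79a stretch covered coding bases 544 to 588 of 660 and lay on the plus strand of chr7:24901296-24901469 (GRCm38), across 2 coding exons. In Cd79b it lay on the minus strand of chr11:106311867-106312012, also across 2 coding exons, and was the same in both annotated transcripts. Of the 45 bases, 31 were identical between the chains, and 7 codons separated the paired motifs in each.

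Levels are given as FPKM, fragments scaled to transcript length and library size. Depth was 1.74 to 2.40 Gb of aligned sequence per library, computed from the constant ratio of coverage to FPKM in genes with 1 transcript. Skiv2l stood at 9.53, 16.1 and 10.9 FPKM in Skiv2l-deleted libraries against 25.4, 20.2 and 46.3 FPKM in control libraries, without overlap (limma adjusted p = 0.063). All 10 B lineage markers, the members Cd79a and Cd79b among them, passed the expression filter. So did all 8 myeloid markers, so passing it does not by itself bear out the B lineage label. At a limma adjusted p below 0.05, 5 B lineage markers were higher (Vpreb1, Igll1, Rag1, Rag2 and Dntt) and 1 was lower (Cd79a). Led by the surrogate light chain gene Igll1, the B lineage markers summed to 4231 to 5301 FPKM in Skiv2l-deleted and 2809 to 3947 FPKM in control libraries. Skiv2l-deleted 2 and control 3 stood apart: 8 myeloid markers, led by the lysozyme gene Lyz2, summed to 331, 2732 and 93.4 FPKM in Skiv2l-deleted 1, 2 and 3 and to 155, 414 and 1484 FPKM in control 1, 2 and 3. Mature B cell markers, led by Ighd, summed to 51.7 to 99.9 FPKM in Skiv2l-deleted and 102 to 157 FPKM in control libraries. Plasma cell markers, led by Igha, summed to 54.9 to 83.9 against 271 to 529 FPKM. T cell markers summed to 8.38 to 10.5 against 3.55 to 4.03 FPKM, mostly from Thy1, and the defining Cd3e, Cd3g and Cd3d reached at most 0.527 FPKM in any library. Natural killer markers, led by Nkg7, summed to 15.0 to 46.2 against 6.67 to 19.9 FPKM. Plasmacytoid dendritic cell markers, led by Cox6a2, summed to 16.4 to 66.0 against 5.79 to 23.1 FPKM. Siglech of this list had 0.137, 6.09 and 0.316 FPKM in Skiv2l-deleted 1, 2 and 3 and 0.736 to 1.04 FPKM in control libraries. Ccr9 and Pacsin1 were below 1 FPKM in every library. Erythroid markers, led by Hba-a1, reached 111 FPKM in Skiv2l-deleted 2 and at most 4.80 FPKM elsewhere, and platelet markers, led by Itga2b, at most 1.89 FPKM. None of the markers was at 0 in all 6 libraries.

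The signalling genes changed unevenly along the pathway. Blk, Cd79a and Syk fell, Fyn rose, and Lyn, Cd79b, Btk, Blnk and Plcg2 did not pass the test. The test was limma on log2(FPKM + 1) with Benjamini-Hochberg adjustment over all genes tested, at an adjusted p below 0.05. It called 4 of the 9 members, 3 lower and 1 higher, where 8.84% of all tested genes were called (4.97% higher and 3.87% lower). Over all genes 673 were higher and 524 lower, and scaling the libraries to a common median gave 559 higher and 664 lower, with the same split of 3 lower and 1 higher among the members. The groups did not overlap in 5 of the 9 members, against 32.2% of all tested genes. Of the members 4 lay below and 1 above, where 12.3% of all tested genes lay below and 19.9% above. The median log2 fold change (Skiv2l-deleted minus control) was −0.26 over the members and 0.06 over all tested genes. In bulk libraries, fewer cells expressing a gene and less of its RNA per cell cannot be told apart.

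**Figure D1:**
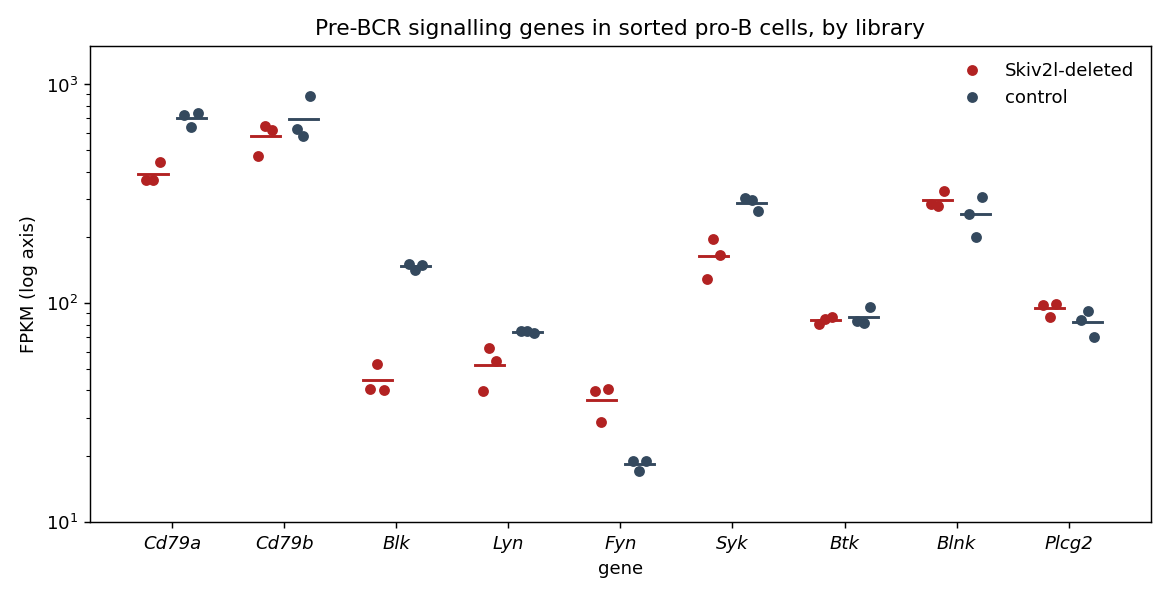
FPKM of each gene (log axis) in the 3 Skiv2l-deleted libraries (left of each pair) and the 3 control libraries (right), with each group's mean as a bar. Blk, Cd79a, Syk and Lyn lie lower in every Skiv2l-deleted library, Fyn lies higher, and the other 4 genes overlap.

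Cd79a (chromosome 7, 24897381 to 24902197, GRCm38), which encodes the Ig-alpha chain, had 367, 368 and 441 FPKM in Skiv2l-deleted libraries against 726, 640.0 and 739 FPKM in control libraries. The lowest control was 1.45-fold above the highest Skiv2l-deleted library. The means were 392 ± 42.5 and 702 ± 53.8 FPKM (SD, n = 3 each), and the Skiv2l-deleted mean was 0.559 of the control mean. The log2 fold change was −0.84 ± 0.12 (SE, limma adjusted p = 0.0123). The call was lost without Skiv2l-deleted 1 (limma adjusted p = 0.0702) and without control 1 (0.0516), and the limma adjusted p ranged from 0.00932 to 0.0702 over 15 alternatives.

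Cd79b (chromosome 11, 106311341 to 106314762), which encodes the partner chain Ig-beta and is not named in the driver, had 473, 647 and 620.3 FPKM in Skiv2l-deleted libraries against 628, 579.7 and 887 FPKM in control libraries. The groups overlapped, and control 3 stood well above the rest. The log2 fold change was −0.26 ± 0.20 with a 95% interval of −0.73 to 0.22 (limma adjusted p = 0.49). The ratio of Cd79a to Cd79b FPKM was 0.775, 0.569 and 0.711 in Skiv2l-deleted libraries against 1.15, 1.10 and 0.834 in control libraries, with means of 0.685 ± 0.105 and 1.03 ± 0.173 (SD, n = 3 each). By coverage the ratio was 0.928, 0.681 and 0.851 in Skiv2l-deleted libraries against 1.38, 1.32 and 0.997 in control libraries, so how far apart the chains stood within each group depended on the column. The groups did not overlap in either column, and for FPKM the exact two-sided permutation test gave p = 0.1, the lowest value that this number of mice can give. The same test was run on 8 sums, shares and ratios of these genes, and each gave 0.1, also after adjustment over the 8.

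The Cd79a locus was examined because the driver is named for Cd79a. Whether the driver sits at this locus is not stated in the sources used here. Of 13 other genes within 100 kb, 5 were tested and 0 were called by limma (1 at an unadjusted p under 0.05), while 7 were listed at 0 in all libraries. Of all 13539 tested genes, 8.84% were called and 3463 had an unadjusted limma p under 0.05. Arhgef1, which starts 0.7 kb beyond Cd79a, had 188, 209.9 and 204 FPKM in Skiv2l-deleted libraries against 199, 162 and 216 FPKM in control libraries (log2 fold change 0.07 ± 0.13, limma adjusted p = 0.808). Rps19, a ribosomal protein gene 7.6 kb upstream, had 1165, 1354 and 1144 FPKM against 770.5, 840.1 and 1115 FPKM (0.44 ± 0.17, limma adjusted p = 0.157). Arhgef1 overlapped between the groups, and Rps19 was higher in each Skiv2l-deleted library. The direction seen in Cd79a was shared by 1 of these 5 neighbours, Gm9844, at −0.31 ± 0.28 (limma adjusted p = 0.542), a gene that overlapped between the groups.

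By the root mean square difference of mean-centred log2(FPKM + 1) over the 6 libraries, the genes with the profile closest to Cd79a were Sapcd2 (0.059), Bcl2l1 (0.067) and Kifc5b (0.078). Their log2 fold changes of −0.84, −0.82 and −0.84 lie close to that of Cd79a because they were chosen by profile. The closest to Cd79b were Bin3 (0.056), Mcrip1 (0.066) and B4galt1 (0.069), each with its highest level in control 3, as Cd79b had. That shared peak also follows from the choice by profile.

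The SRC-family kinases, which phosphorylate the ITAMs, changed in opposite directions. Blk (chromosome 14, 63372836 to 63417037), a kinase largely restricted to the B lineage, had 40.6, 53.0 and 40.3 FPKM in Skiv2l-deleted libraries against 151, 142 and 150.3 FPKM in control libraries. Its lowest control was 2.67-fold above its highest Skiv2l-deleted library. The means were 44.6 ± 7.25 and 148 ± 5.32 FPKM (SD, n = 3 each), 3.31-fold lower in Skiv2l-deleted cells, with a log2 fold change of −1.72 ± 0.13 (limma adjusted p = 0.00351). By p-value it ranked 13 among the 13539 genes. Blk was called in 15 of 15 alternatives, and its log2 fold change ranged from −1.84 to −1.65.

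Lyn (chromosome 4, 3678115 to 3813122), a kinase that can both start and restrain B cell receptor signals, had 40.0, 62.7 and 54.8 FPKM in Skiv2l-deleted libraries against 74.7, 74.6 and 72.9 FPKM in control libraries. The controls lay close together, the Skiv2l-deleted libraries were spread, and the groups did not overlap. The log2 fold change of −0.51 ± 0.17 did not pass after adjustment (95% interval −0.91 to −0.12, limma adjusted p = 0.108). Lyn was called in 0 of 15 alternatives, with a lowest limma adjusted p of 0.0567.

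Fyn (chromosome 10, 39368855 to 39565381), a SRC-family kinase also used by T and natural killer cells, had 40.0, 28.6 and 40.5 FPKM in Skiv2l-deleted libraries against 19.1, 17.1 and 19.1 FPKM in control libraries. Every Skiv2l-deleted library was above every control, with means of 36.4 ± 6.72 and 18.4 ± 1.18 FPKM (SD, n = 3 each). The log2 fold change was 0.93 ± 0.16 (limma adjusted p = 0.0174). T cell marker sums were higher in each Skiv2l-deleted library than in each control, mostly from Thy1. Cd3e, Cd3g and Cd3d reached at most 0.527 FPKM in any library. Natural killer marker sums, at 23.7, 46.2 and 15.0 FPKM in Skiv2l-deleted libraries against 6.67, 7.58 and 19.9 FPKM in control libraries, overlapped. Of the 3 natural killer markers tested, Klrb1c was called higher (log2 fold change 1.65, limma adjusted p = 0.00608). Nkg7 and Klrd1 overlapped between the groups and were not called. The part of these markers in the Fyn value was not tested. The Fyn call was lost without Skiv2l-deleted 1, Skiv2l-deleted 3, control 1 or control 2 (highest limma adjusted p = 0.0883).

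The level of Fyn also depended on the column read. On the FPKM scale, its deposited coverage corresponded to 1.97, 1.44 and 1.77 in Skiv2l-deleted libraries against 1.02, 0.927 and 1.0 in control libraries, so that its FPKM was 18.4 to 22.9 times as large. In the other 8 members that factor was between 1.0 and 2.87. Fyn has 9 annotated transcripts of 333 to 3562 bases, and how transcripts were combined into gene values was not stated. The ratio of Skiv2l-deleted to control means was 1.97 by FPKM and 1.76 by coverage, and the coverage values gave a log2 fold change of 0.46 on the log2(value + 1) scale (limma adjusted p = 0.0592).

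Summed over Blk, Lyn and Fyn, the SRC-family message was 121, 144 and 136 FPKM in Skiv2l-deleted libraries against 245, 233 and 242 FPKM in control libraries, 1.80-fold lower on average and without overlap. Blk made up 33.4 ± 3.53% of this sum in Skiv2l-deleted libraries and 61.5 ± 0.683% in control libraries (SD, n = 3 each). Lyn made up 39.0 ± 5.28% and 30.8 ± 0.988%, and Fyn 27.6 ± 6.95% and 7.67 ± 0.306%. With coverage in place of FPKM the Fyn shares were 2.24% and 0.555%, so the place of Fyn among the 3 kinases is uncertain while the shift from Blk towards Lyn was present in both columns. The Blk to Lyn ratio was 0.865 ± 0.141 in Skiv2l-deleted and 2.0 ± 0.0848 in control libraries by FPKM, and 0.820 ± 0.147 and 1.86 ± 0.0694 by coverage.

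**Figure D2:**
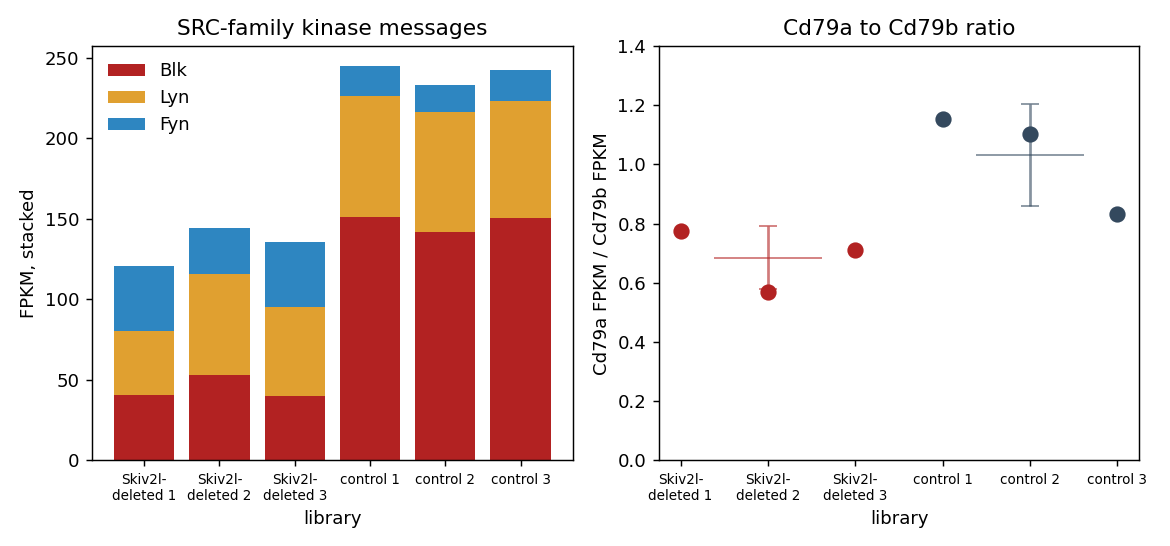
Left: FPKM of Blk, Lyn and Fyn stacked by library. Right: ratio of Cd79a to Cd79b FPKM by library, with the mean and SD of each group (n = 3). The stacks reach 121 to 144 FPKM in Skiv2l-deleted and 233 to 245 FPKM in control libraries, and the ratios lie at 0.569 to 0.775 and 0.834 to 1.15.

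Syk (chromosome 13, 52583173 to 52648792), the kinase that binds the phosphorylated ITAM, had 129, 196 and 166 FPKM in Skiv2l-deleted libraries against 301, 298 and 264 FPKM in control libraries. All Skiv2l-deleted values lay below all controls, with means of 164 ± 33.6 and 288 ± 20.9 FPKM (SD, n = 3 each). The log2 fold change was −0.82 ± 0.16 (limma adjusted p = 0.0282). The call was lost without Skiv2l-deleted 1, Skiv2l-deleted 3, control 1 or control 2 (highest limma adjusted p = 0.108).

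Syk, Lyn and Fyn are expressed in myeloid cells as well as in B cells. Skiv2l-deleted 2, which had the most myeloid message, also had the highest Syk, Lyn and Blk and the lowest Fyn of its group, and control 3 had the lowest Syk and Lyn of the controls. In the 4 libraries without Skiv2l-deleted 2 and control 3, the log2 fold changes were −1.03 for Syk (limma adjusted p = 0.0162), −0.66 for Lyn (0.0567), 1.11 for Fyn (0.0102) and −1.83 for Blk (0.00627), each larger in size than with all 6 libraries. For Cd79a the value was −0.76 (limma adjusted p = 0.0264), smaller than with all 6 libraries. These 4 libraries were not free of myeloid message. Their myeloid marker sums were 331 and 93.4 FPKM in Skiv2l-deleted 1 and 3 and 155 and 414 FPKM in control 1 and 2. Mature B cell marker sums were lower in Skiv2l-deleted libraries, 3 of 5 tested markers being called lower. The part of these markers in the Blk and Syk values was not tested.

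**Figure D3:**
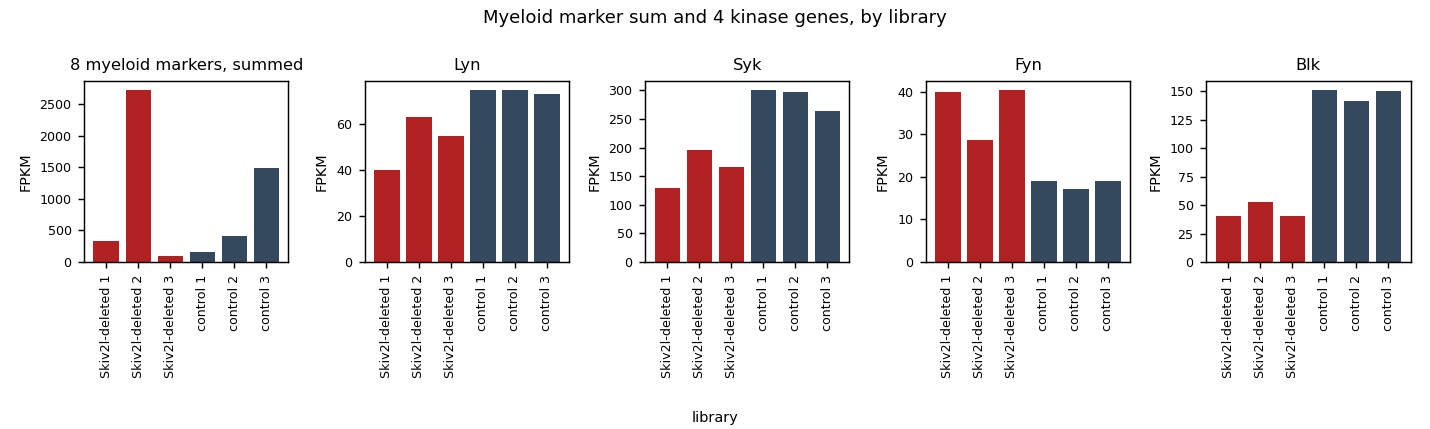
Summed FPKM of 8 myeloid markers and FPKM of Lyn, Syk, Fyn and Blk in each library, each panel with its own axis from 0. The marker sum peaks at 2732 FPKM in Skiv2l-deleted 2 and 1484 FPKM in control 3, and Blk, at 40.3 to 53.0 FPKM in Skiv2l-deleted and 142 to 151 FPKM in control libraries, is highest within its group in Skiv2l-deleted 2.

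The genes downstream of Syk moved little. Btk (chromosome X, 134542336 to 134583570), the TEC-family kinase that activates PLCG2, had 80.1, 84.9 and 86.2 FPKM in Skiv2l-deleted libraries against 82.8, 81.3 and 96.4 FPKM in control libraries. Its log2 fold change was −0.05 ± 0.11, with the narrowest 95% interval of the 9 genes, −0.30 to 0.20 (limma adjusted p = 0.834). The groups overlapped, and the sign of the Btk difference turned when control 3 was left out.

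Blnk (chromosome 19, 40928927 to 40994535), the adaptor that joins BTK and PLCG2, had 283, 278 and 325 FPKM in Skiv2l-deleted libraries against 256, 202 and 308 FPKM in control libraries. The groups overlapped through control 3, with a log2 fold change of 0.23 ± 0.17 (95% interval −0.17 to 0.62, limma adjusted p = 0.461). Plcg2 (chromosome 8, 117498291 to 117635142), which cleaves membrane phosphoinositide into the calcium and protein kinase C messengers, had 98.5, 86.6 and 99.5 FPKM against 83.8, 92.6 and 70.4 FPKM. It overlapped as well, at 0.21 ± 0.13 (95% interval −0.10 to 0.52, limma adjusted p = 0.378). These intervals exclude, before adjustment, a fall of the size seen in Blk, Cd79a or Syk for each of Btk, Blnk and Plcg2. The ratio of Blnk to Syk FPKM was 2.19, 1.41 and 1.95 in Skiv2l-deleted libraries against 0.850, 0.676 and 1.17 in control libraries. It did not overlap between the groups (exact permutation p = 0.1, two-sided).

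**Figure D4:**
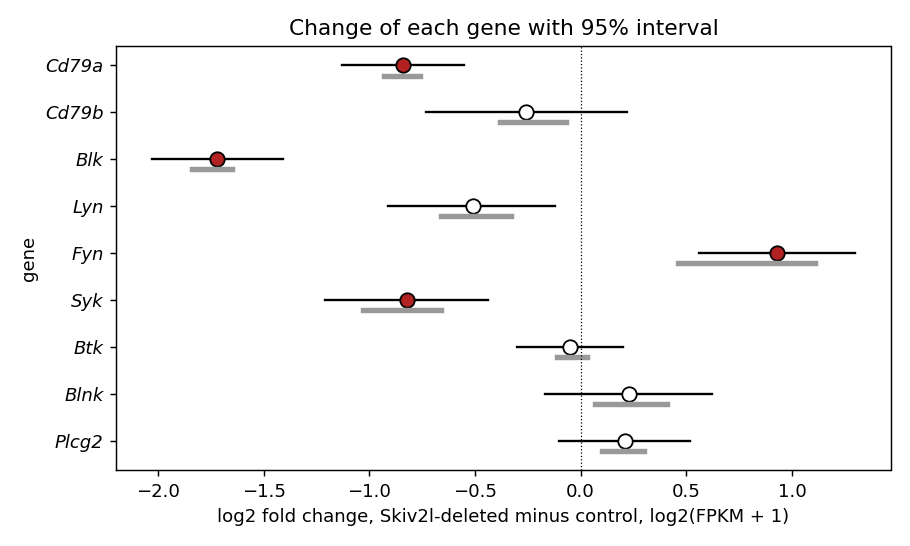
Log2 fold change of each gene (circle, filled where the limma adjusted p is below 0.05) with its 95% interval (black line) and the range over 15 alternative settings (grey bar). Blk stands at −1.72, Cd79a and Syk near −0.8 and Fyn at 0.93, while Btk, Blnk and Plcg2 have intervals that include 0.

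The order of levels changed with these shifts. In Skiv2l-deleted libraries the mean FPKM fell in the order Cd79b, Cd79a, Blnk, Syk, Plcg2, Btk, Lyn, Blk and Fyn, and neighbours overlapped in range between Lyn and Blk and between Blk and Fyn. In control libraries the order was Cd79a, Cd79b, Syk, Blnk, Blk, Btk, Plcg2, Lyn and Fyn, with overlaps between Cd79a and Cd79b, Syk and Blnk, Btk and Plcg2, and Plcg2 and Lyn. Both chains ranked high among the 13539 tested genes, Cd79a at 163 in Skiv2l-deleted and 85 in control libraries and Cd79b at 116 and 87. Blk stood at 2276 in Skiv2l-deleted and 538 in control libraries. FPKM is a level per length, but Blnk and Syk were 2.84 to 2.87 and 1.77 to 1.84 times higher by FPKM than by coverage. Their places in these orders are therefore uncertain. By coverage on the FPKM scale, Blk was above Blnk in each control library (112 to 117 against 70.7 to 108). The control mean of Lyn (61.5) was then also above that of Btk (59.0).

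The other parts of the pathway were followed through 7 lists of 75 genes, of which 69 were tested. Of these 9 rose and 6 fell (21.7% called, against 8.84% of all tested genes), with a median log2 fold change of 0.04. In the 4 libraries without Skiv2l-deleted 2 and control 3, 14 rose and 9 fell of 67. Left out in turn, Skiv2l-deleted 1, 2 and 3 gave 0, 9 and 1 called genes, and control 1, 2 and 3 gave 2, 4 and 19, in place of 15. Of the 15 genes, Igll1 kept its call in 4 of these 6 omissions, Vpreb2, Ptpn22, Cd72 and Dok3 in 3, Plcg1 in 2, Itpr1 and Siglecg in 0, and the other 7 in 1. With TPM in place of FPKM, Gab2, Itpr1 and Akt1 were not called (limma adjusted p = 0.0518, 0.0798 and 0.0872).

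The genes of the mu heavy chain and of the surrogate light chain, which pair with each other, moved apart. The surrogate light chain genes Igll1, Vpreb1 and Vpreb2 rose and the mu heavy chain gene Ighm fell, while Vpreb3, a chaperone-like relative, did not pass (0.00 ± 0.14). Igll1 had 1244, 1021 and 1423 FPKM in Skiv2l-deleted libraries against 545, 402 and 579 FPKM in control libraries, the opposite direction to Cd79a. Ighm had 2074, 2308 and 2319 FPKM against 3534, 3188 and 3483 FPKM, lower in each Skiv2l-deleted library (log2 fold change −0.61 ± 0.12, limma adjusted p = 0.0297). The mature B cell and plasma cell marker sums were also lower in each Skiv2l-deleted library, and the part of such cells in the Ighm values was not tested. Vpreb1 and Vpreb2 are near-identical copies between which reads can be split.

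Among 8 tested genes of other SRC-family kinases and their regulators, 1 rose and 0 fell (12.5% called, against 8.84% of all tested genes). Ptpn22, a phosphatase that dephosphorylates activated SRC- and SYK-family kinases, had 21.3, 39.8 and 14.8 FPKM in Skiv2l-deleted libraries against 5.13, 4.85 and 6.91 FPKM in control libraries (1.89 ± 0.33, limma adjusted p = 0.0202). The values of Csk and Lck are given after they were seen. Csk, which phosphorylates the inhibitory tail of SRC-family kinases, had 148, 138 and 163 FPKM against 210.4, 202 and 187 FPKM, without overlap, and did not pass (−0.42 ± 0.11, limma adjusted p = 0.0595). The T cell kinase Lck was at 19.9 to 36.4 FPKM in Skiv2l-deleted and 27.6 to 28.3 FPKM in control libraries.

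Of the SYK and TEC relatives, Zap70 and Tec were tested and 0 were called by limma (0 at an unadjusted p under 0.05). Among all 13539 tested genes, 3463 were under this unadjusted limma p. Zap70, which can stand in for SYK, had 8.47, 4.11 and 7.09 FPKM in Skiv2l-deleted libraries against 6.94, 6.64 and 4.99 FPKM in control libraries, far below Syk on the same FPKM scale (0.04 ± 0.25, limma adjusted p = 0.954).

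Of 15 adaptors and PLCG2 partners, 3 rose and 0 fell (20.0% called, against 8.84% of all tested genes). They were the docking proteins Gab1 (0.76 ± 0.18, limma adjusted p = 0.0453) and Gab2 (0.70 ± 0.15, 0.0318), which bind phosphoinositide 3-kinase (PI3K), and Plcg1. This relative of Plcg2 had 65.8, 64.2 and 67.5 FPKM in Skiv2l-deleted libraries against 47.1, 30.7 and 40.2 FPKM in control libraries (0.75 ± 0.16, limma adjusted p = 0.0338). In the PI3K arm, 1 of 11 rose and 1 fell (18.2% called). Pik3cd, the leukocyte catalytic subunit, had 135, 153 and 144 FPKM in Skiv2l-deleted libraries against 104, 103 and 106 FPKM in control libraries (0.46 ± 0.10, limma adjusted p = 0.0311). Akt1, a kinase downstream of PI3K, had 108, 99.3 and 110.2 FPKM against 157, 151 and 133 FPKM (−0.47 ± 0.11, limma adjusted p = 0.0416). In the calcium, protein kinase C and downstream arm, 1 of 14 was called (7.14%, near the 8.84% of all tested genes). This gene, the calcium channel gene Itpr1, rose (0.85 ± 0.20, limma adjusted p = 0.046).

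Of 14 inhibitory receptors and phosphatases, 4 fell and 0 rose (28.6% called, against 8.84% of all tested genes), with a median of −0.06. Cd72, an inhibitory B cell coreceptor, had 141, 167 and 186 FPKM in Skiv2l-deleted libraries against 476, 331 and 608 FPKM in control libraries (−1.48 ± 0.23, limma adjusted p = 0.014). Dok3, an adaptor that restrains B cell receptor signals, had 85.7, 155 and 120.3 FPKM against 314, 228 and 334 FPKM (−1.29 ± 0.24, limma adjusted p = 0.023). The sialic acid-binding inhibitory receptors Siglecg (−0.83 ± 0.19, limma adjusted p = 0.0451) and Cd22 (−0.75 ± 0.14, 0.0223) fell as well. Of the mature B cell markers 3 of 5 tested fell (Ms4a1 at −1.20, Fcer2a at −1.38 and Ciita at −2.03, log2 fold change). Ighd (−0.66) and Cd40 (0.01) were not called, and Fcer2a reached at most 2.31 FPKM in any library. Of the plasma cell markers 3 of 4 tested fell (Sdc1 at −1.29, Jchain at −5.53 and Igha at −7.73), and Xbp1 (0.30) was not called. The sums are given above. The part of these markers in the fall of Cd72, Dok3, Siglecg and Cd22 was not tested. All 4 were lower in each Skiv2l-deleted library, and the list gave 3 higher and 3 lower members in the 4 libraries without Skiv2l-deleted 2 and control 3. Over the omissions of 1 library it gave 0 to 3 lower and 0 to 2 higher members.

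**Figure D5:**
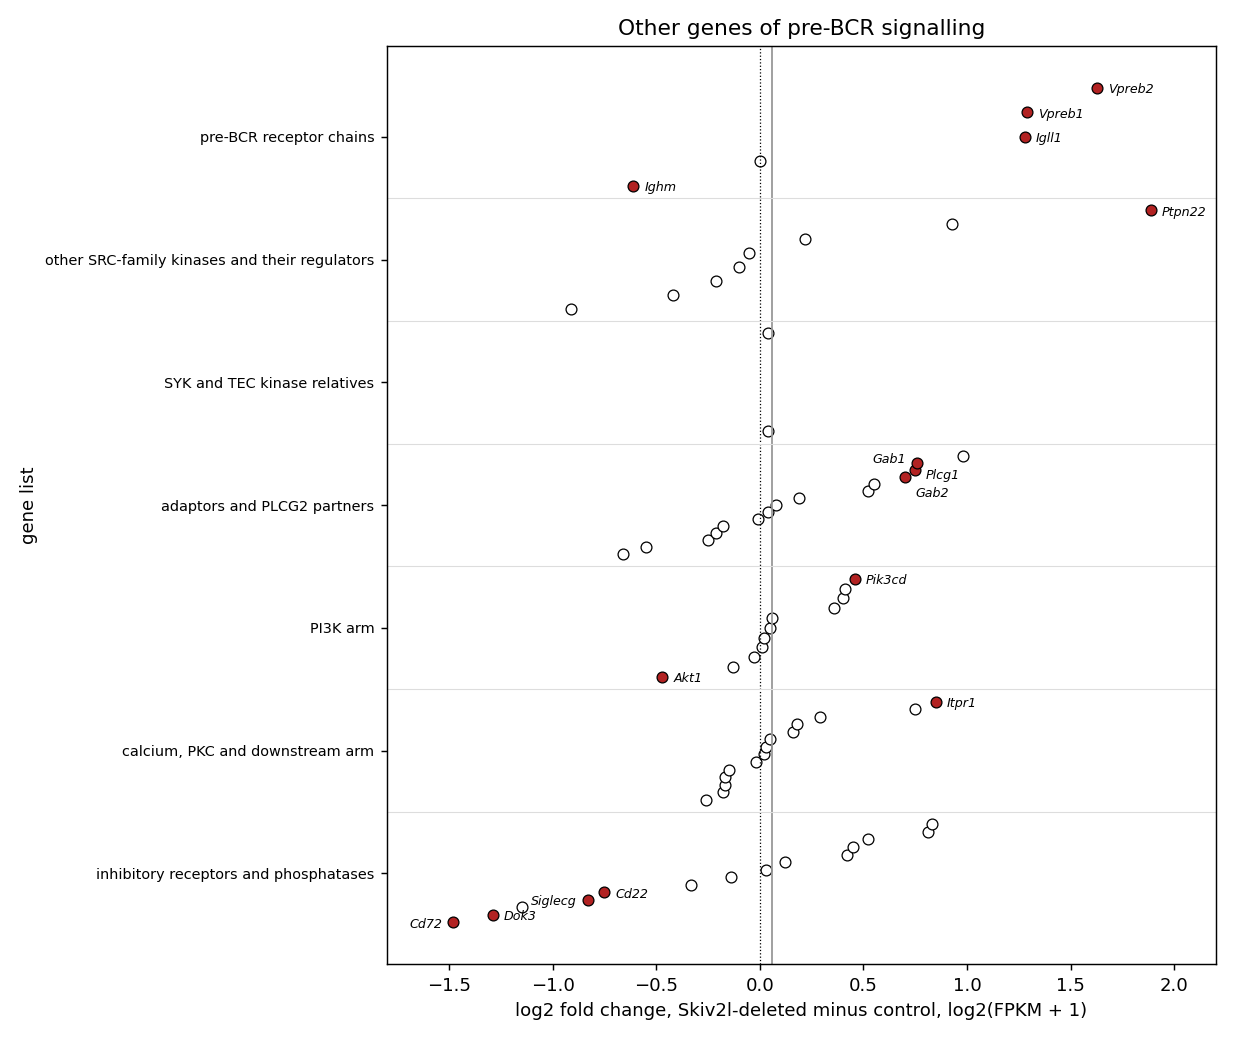
Log2 fold change of the 69 tested genes of the 7 lists (circles, filled and named where the limma adjusted p is below 0.05), with the median of all tested genes as a grey line at 0.06. The filled circles lie on the left among inhibitory receptors and mostly on the right in the other lists.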

How the data were processed

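For each mouse the authors deposited 1 table with FPKM, TPM (another length-scaled measure) and coverage (a signal, the mean depth per base) by gene, per the file headers. The build named in the submitters' processing notes was GRCm38. Libraries were strand-specific, per the labels' protocols. No aligner, quantifier or use of strand in counting was stated in these sources, so overlapping genes are uncertain. Values of identifiers on several lines (7 to 9 per table) were summed. Genes that reached 1 FPKM in 3 or more libraries were tested with limma 3.58.1 (R 4.3.3, trended eBayes) on log2(FPKM + 1), with genotype as the only term. This scale understates changes of low genes. The tables hold no read counts, so no count model was used. Sums and ratios were compared with exact permutation tests in scipy 1.17.1. The limma step was run on simulated data with independent noise for each gene. Effects shared by many genes of a library were not simulated. P-values measure the spread between mice. The members, lists and tests were chosen with earlier results of these data known. Genes named by rule are the members, Skiv2l, the receptor chains, the called genes of each list (up to 4 in each direction), the nearest profiles (3 each for Cd79a and Cd79b) and the highest gene of each marker list. Other genes given (Csk, Lck, Zap70, Tec, the Cd79a neighbours and further cell type markers) were chosen after their values were seen. The ITAM stretches came from GENCODE vM21, whose Cd79a and Cd79b coordinates match the tables. Some genes of the pathway lists enter the counts and are not reported here by name.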

Additional observations from a re-analysis of the deposited data

How the results depend on the processing

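Of 13539 genes, 1197 were called; without the expression filter 512 of 28354 were, and with the replicate number as a block 365. Members called numbered 4, against 1 without the filter (Blk) and 2 with the block (Blk and Fyn). Pathway genes called numbered 15, against 1 without the filter, 4 with the block and 23 in the 4 libraries without Skiv2l-deleted 2 and control 3. Of the members, 1 was called without Skiv2l-deleted 1 or control 1 and 2 without Skiv2l-deleted 3 or control 2. Leaving out 1 library gave 179 (without Skiv2l-deleted 3) to 1749 (without control 3) genes, 1 to 4 members and 0 to 19 pathway genes. The Btk difference of −0.05 reversed to 0.03 without control 3 (−0.09 to 0.03 over the omissions) and to 0.02 in the 4 libraries. The Cd79a to Cd79b log2 ratio kept its sign (−0.73 to −0.46 over the omissions), as did the summed SRC-family message (−0.91 to −0.78). The sample titles give replicate numbers without stating a pairing. Same-numbered deviations from the group means correlated at 0.09, −0.43 and −0.35, and those of Skiv2l-deleted 2 and control 3 at 0.56. Deviations centred within 3 libraries per group cannot decide whether a pairing exists. Coverage in place of FPKM, chosen after seeing the data, left 3 members called. TPM, a pseudocount of 0.1, a common median, a fit without a trend and leaving out immune receptor segments each kept 4. The causes of these changes were not tested.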

Other observations

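The gap between FPKM and coverage seen in Fyn was not particular to it. Of 13539 tested genes, 470 (3.47%) had a mean FPKM at least 10 times their coverage on the same scale, and Fyn ranked 167 by this ratio, at 20.2 against a median of 1.45. None of the 470 had a single annotated transcript, and 52 of them (11.1%) were called in the comparison of genotypes.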
